A study of Mus musculus with 4 samples.

Results

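Transforming growth factor beta (TGF-beta) signalling was described through 10 genes in mouse pancreatic duct samples: the ligands Tgfb1, Tgfb2 and Tgfb3, the receptors Tgfbr1, Tgfbr2 and Tgfbr3, the inhibitors Smad7, Pmepa1 and Skil that the pathway induces against itself, and the matrix protein gene Tgfbi. The genes were picked by name, with earlier results of these data known, and all 10 were found among the 52535 gene models of the count files. RNA sequencing covered 2 wild-type libraries (WT rep1 and WT rep2) and 2 libraries labelled knockout (KO rep1 and KO rep2), all of strain C57BL/6 and of cells labelled ductal. The knockout genotype is Lats1fl/fl; Lats2fl/fl; Sox9-CreER, in which a tamoxifen-activated Cre recombinase is made in cells that express Sox9 and deletes the floxed parts of both genes, which encode the kinases that hold the co-activators YAP and TAZ in check. Wild-type samples carry no allele beyond their strain in the labels, and whether they share floxed alleles or an induction with the other group is not stated. Age, the induction schedule, the way duct cells were isolated and whether the 2 libraries of a group came from separate animals are not stated by any source used here. The p-values therefore measure the spread between these libraries, which may be technical.

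TGF-beta ligands are secreted in a latent complex and, once released, bind the type II receptor (TGFBR2), which recruits and phosphorylates the type I receptor (TGFBR1). That receptor phosphorylates SMAD2 and SMAD3, which enter the nucleus with SMAD4 and switch on target genes, among them genes for inhibitors of the same pathway. In the pancreas the pathway is known for restraining the growth of epithelial cells and for driving fibrosis through stellate cells and fibroblasts.

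Libraries held 3566387 to 5925601 counts, and 13990 genes passed the filter on low counts, all 10 TGF-beta genes among them. Levels are given as CPM, counts scaled to a common library size by the trimmed mean of M values (TMM), and changes as log2 fold changes, knockout-labelled minus wild type, ± the standard error (SE) of the edgeR quasi-likelihood fit. A gene passed where its Benjamini-Hochberg adjusted p over all tested genes was under 0.05. Across all tested genes 42.2% passed, 22.0% higher and 20.2% lower in the libraries labelled knockout, and the median log2 change was -0.01. The targeted genes Lats1 and Lats2 were read as a check of the labels, and neither was lower in the libraries labelled knockout. Counts over a whole gene model can include transcripts that lack only some exons, so such counts cannot decide whether the genes were deleted. Lats1 had 58.2 ± 10.5 CPM in wild type and 74.6 ± 6.45 CPM under the knockout label (SD, n = 2; edgeR adjusted p = 0.172), and Lats2 at 108 ± 8.53 and 142 ± 29.7 CPM (SD, n = 2; edgeR adjusted p = 0.127). Lats2 passed without KO rep2 (log2 change 0.63, edgeR adjusted p = 0.036) and with no filter on low counts (0.47, edgeR adjusted p = 0.0433).

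Of the 10 genes, 9 rose and 1 fell in the libraries labelled knockout, against the 22.0% and 20.2% of all tested genes given above. Tgfb2 and Pmepa1 had the largest rises, at 7.73-fold and 9.02-fold, and Tgfbr3, a co-receptor, was the gene that fell, by 1.15 on the log2 scale. The median log2 change of the 10 genes was 1.05. The libraries of the 2 groups did not overlap for any of the 10 genes, which was also so for 74.3% of all tested genes (37.4% with the knockout-labelled libraries higher and 36.8% with them lower). Leaving out 1 library gave 7 to 8 genes higher and 1 lower. The calls that were lost belonged to Smad7, Tgfb1 and Skil, as given with each gene.

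**Figure D1:**
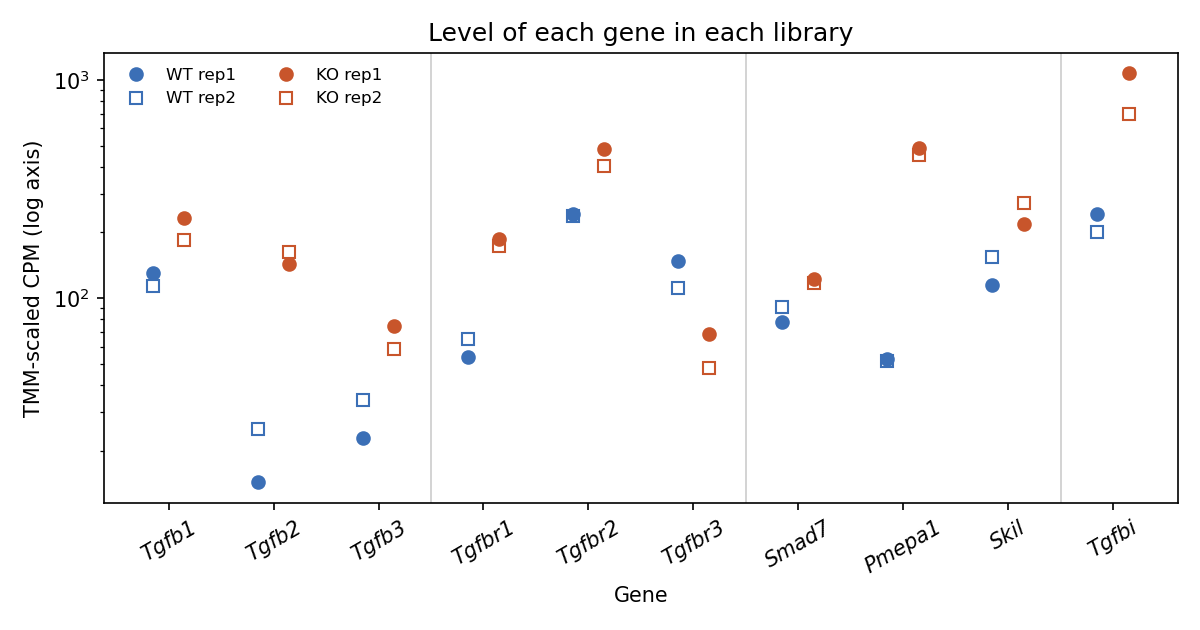
Level of each of the 10 genes in each library, as TMM-scaled CPM on a log axis, with wild type in blue and knockout-labelled in orange, circles for replicate 1 and open squares for replicate 2. Knockout-labelled points lie above the wild-type points for 9 genes and below them for Tgfbr3.

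RefSeq promoter sequences (build GRCm38.p6) were at hand for 5 of the 10 genes, namely Tgfb1, Tgfb2, Tgfbr1, Tgfbr2 and Tgfbi, and are used for what genes that rose together carry just before their start. Tgfb1, Tgfb2 and Tgfbr2 are shown because they are the ligand with the smallest rise, the ligand with the largest rise and the receptor that binds them. Each line gives the 250 bases before the annotated start, 5′ to 3′ on the gene's strand, with capitals for the letters CAGAC or their reverse complement GTCTG, a core of SMAD binding elements. Tgfb1 lies at chr7:25686752-25687001 (plus strand), Tgfb2 at chr1:186705990-186706239 (minus strand) and Tgfbr2 at chr9:116175364-116175613 (minus strand).
Tgfb1: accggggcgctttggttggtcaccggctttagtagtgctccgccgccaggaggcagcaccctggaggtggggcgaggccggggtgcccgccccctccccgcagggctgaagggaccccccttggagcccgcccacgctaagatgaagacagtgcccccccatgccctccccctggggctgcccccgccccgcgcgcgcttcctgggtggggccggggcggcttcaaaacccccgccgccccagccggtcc
Tgfb2: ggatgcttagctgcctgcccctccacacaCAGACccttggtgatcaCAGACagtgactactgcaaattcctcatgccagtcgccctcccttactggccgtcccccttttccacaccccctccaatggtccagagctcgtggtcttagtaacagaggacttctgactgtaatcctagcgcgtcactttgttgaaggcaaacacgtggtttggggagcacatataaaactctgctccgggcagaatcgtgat
Tgfbr2: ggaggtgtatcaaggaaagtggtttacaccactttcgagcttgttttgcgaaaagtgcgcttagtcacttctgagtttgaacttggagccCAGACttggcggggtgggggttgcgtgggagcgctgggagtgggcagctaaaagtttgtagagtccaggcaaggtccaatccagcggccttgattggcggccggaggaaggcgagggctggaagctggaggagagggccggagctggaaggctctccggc

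The Tgfb2 window held CAGAC at 2 places, starting at -221 and -204 from the start, the Tgfbr2 window at 1 place, starting at -160, and the Tgfb1 window at none. Over the 6 windows of the 5 genes (Tgfbr1 has 2 starts), 4 windows held these letters on either strand. The share among 32851 RefSeq windows of the same length was 42.2%. For Tgfbr1 the match lay in the window at chr4:47385966-47386215, inside its gene model, and the window before the start of the model held no match. Of the Tgfbi window, 63 bases lay in annotated untranslated regions. The TEAD motif GGAATG (the factor through which YAP binds DNA; both strands searched) and the AP-1 motif TGANTCA (read the same on both strands) were in 0 of the 6 windows, against 12.6% and 6.75% of all windows. No searched motif overlapped another in these windows. A match is only a run of letters, and its absence says nothing of more distant sites.

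All 3 ligand genes rose, and Tgfb2 by the most. Tgfb1 (chromosome 7, 25687002 to 25705077, mm10) encodes the isoform that is most widely made and that leukocytes also produce. Its level was 130 and 114 CPM in WT rep1 and WT rep2 and 234 and 184 CPM in KO rep1 and KO rep2. Both knockout-labelled libraries were above both wild-type ones, and KO rep1 was the highest. Tgfb1 rose 1.71-fold (log2 change 0.77 ± 0.18 SE, edgeR adjusted p = 0.00902), but did not pass without WT rep2 (0.68, edgeR adjusted p = 0.0658).

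Tgfb2 (chromosome 1, 186622792 to 186705989) encodes an isoform that depends more than the others on the co-receptor TGFBR3 for binding to the signalling receptors. It had 52 and 112 counts in WT rep1 and WT rep2 and 715 and 1010 in KO rep1 and KO rep2, or 14.3 and 25.2 CPM against 144 and 164 CPM. Wild-type libraries differed from each other more, in proportion, than the knockout-labelled ones did. The rise was 7.73-fold (log2 change 2.95 ± 0.27 SE, edgeR adjusted p = 9.73e-05), and 305 of the 13990 tested genes had a larger log2 change. Leaving out 1 library gave log2 changes of 2.62 to 3.43, all of which passed.

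Tgfb3 (chromosome 12, 86056745 to 86079041), which encodes an isoform known from mesenchymal cells and palate formation, stood at 22.8 and 34.2 CPM in WT rep1 and WT rep2 and at 74.3 and 58.4 CPM in KO rep1 and KO rep2. It was higher in both knockout-labelled libraries, by 2.32-fold (log2 change 1.21 ± 0.25 SE, edgeR adjusted p = 0.00482). The summed level of the 3 ligand genes came to 170 ± 4.19 CPM in the wild-type pair and 429 ± 32.4 CPM in the knockout-labelled pair (SD, n = 2).

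The make-up of the ligand transcripts differed between the groups in the same way. With counts divided by the length of all annotated exons, Tgfb2 made up 7.04% and 11.7% of the ligand transcripts in WT rep1 and WT rep2 and 26.7% and 34.4% in KO rep1 and KO rep2. Tgfb1 held 73.7% and 61.0% in wild type and 49.8% and 44.5% in the libraries labelled knockout, and was the most abundant of the 3 in each library. The share of Tgfb3 was 19.2% and 27.3% in wild type and 23.6% and 21.1% in KO rep1 and KO rep2, so that the groups overlapped. The Tgfb2 share had a mean of 9.39% ± 3.32 in wild type and 30.6% ± 5.48 in the libraries labelled knockout (SD, n = 2; two-sided exact permutation p = 0.333, the smallest that 2 libraries against 2 can give). Of the ligand counts without division by length, Tgfb2 took 8.54% (exact 95% binomial interval 6.44 to 11.1) and 14.5% (12.1 to 17.2) in WT rep1 and WT rep2. In KO rep1 and KO rep2 it took 31.9% (29.9 to 33.8) and 40.3% (38.3 to 42.2), intervals that cover counting error only.

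**Figure D2:**
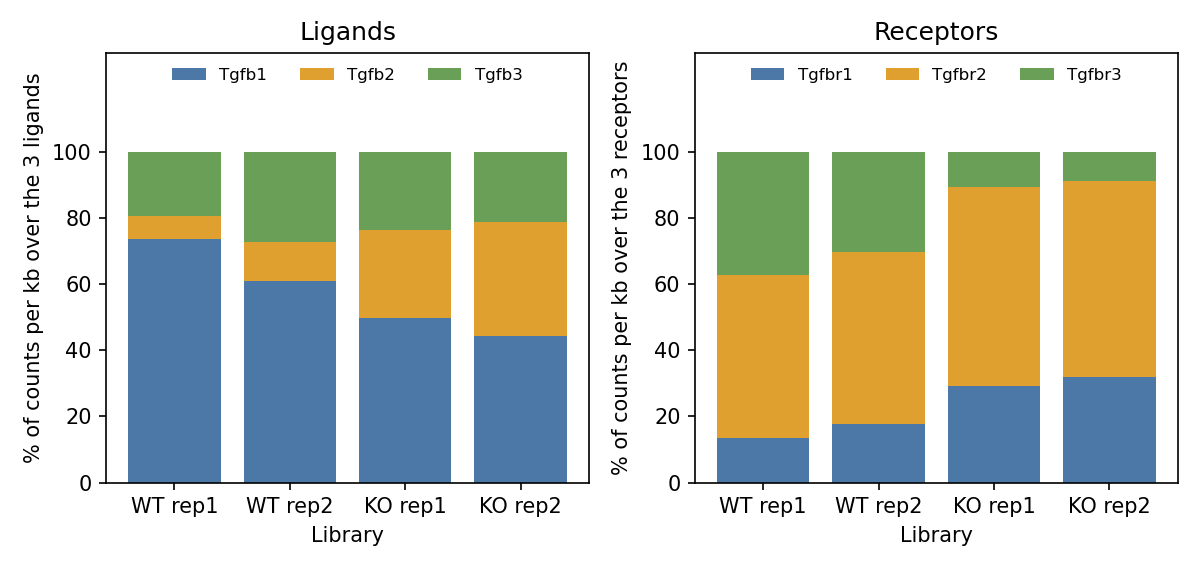
Share of each ligand gene (left) and each receptor gene (right) in the summed counts per kilobase of its 3 genes, in percent, for each library. Tgfb2 takes 7.04% to 11.7% of the ligand bar in wild type and 26.7% to 34.4% in the libraries labelled knockout, and Tgfbr3 30.3% to 37.3% against 8.77% to 10.7% of the receptor bar.

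The receptor genes split: both signalling receptors rose and the co-receptor fell. Tgfbr1 (chromosome 4, 47353222 to 47414931), the type I kinase, stood at 53.6 and 64.7 CPM in WT rep1 and WT rep2 and at 188 and 173 CPM in KO rep1 and KO rep2. It rose 3.05-fold (log2 change 1.61 ± 0.17 SE, edgeR adjusted p = 0.000201). Tgfbr2 (chromosome 9, 116084293 to 116175360), the type II kinase that binds ligand first, was at 243 and 238 CPM in wild type and at 483 and 404 CPM in the libraries labelled knockout. The wild-type values lay close together, and the rise was 1.85-fold (log2 change 0.88 ± 0.16 SE, edgeR adjusted p = 0.00313).

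Tgfbr3 (chromosome 5, 107106570 to 107289629) encodes betaglycan, a membrane proteoglycan that presents ligand, TGFB2 above all, to TGFBR2. Its level was 147 and 111 CPM in WT rep1 and WT rep2 and 68.6 and 47.8 CPM in KO rep1 and KO rep2. Both knockout-labelled libraries were below both wild-type ones, and the fall was 2.22-fold (log2 change -1.15 ± 0.23 SE, edgeR adjusted p = 0.00431). Tgfbr3 fell in each of 11 alternatives, with log2 changes of -1.43 to -0.88, all of which passed. Its share of the receptor transcripts, per length, had a mean of 33.8% ± 4.93 in wild type and 9.72% ± 1.35 in the libraries labelled knockout (SD, n = 2; two-sided exact permutation p = 0.333, the smallest possible here). Tgfbr2 held 49.1% and 52.0% in wild type and 60.1% and 59.3% in KO rep1 and KO rep2, and Tgfbr1 13.6% and 17.7% against 29.2% and 31.9%. Tgfbr3 was lowest in KO rep2, the library with the most Tgfb2, and highest in WT rep1, the library with the least. The 4 libraries fall in 2 groups that differ in both genes, and a link between the genes was not tested.

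The 3 inhibitor genes rose by very different amounts. Pmepa1 (chromosome 2, 173224458 to 173276533), whose membrane protein binds SMAD2 and SMAD3 and keeps them from the receptor, was at 52.8 and 51.5 CPM in WT rep1 and WT rep2 and at 488 and 452 CPM in KO rep1 and KO rep2. The values within each group were close, and the rise of 9.02-fold (log2 change 3.17 ± 0.17 SE, edgeR adjusted p = 1.27e-05) was exceeded by 260 of the 13990 tested genes. Leaving out 1 library gave log2 changes of 3.12 to 3.26.

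Skil (chromosome 3, 31095058 to 31122577), which encodes the SMAD corepressor SnoN, stood at 115 and 154 CPM in wild type and at 218 and 272 CPM in the libraries labelled knockout. It rose 1.82-fold (log2 change 0.87 ± 0.20 SE, edgeR adjusted p = 0.00877), but did not pass without WT rep1, the lowest library (0.68, edgeR adjusted p = 0.0655). Smad7 (chromosome 18, 75367529 to 75395935), the inhibitory SMAD that blocks the type I receptor and is a standard early readout of the pathway, was at 77.5 and 91.3 CPM in WT rep1 and WT rep2. In KO rep1 and KO rep2 it was at 122 and 117 CPM, 1.42-fold higher, the smallest rise of the 9 (log2 change 0.50 ± 0.17 SE, edgeR adjusted p = 0.0391). Smad7 did not pass without WT rep1 (0.41, edgeR adjusted p = 0.210), WT rep2 (0.63, 0.0683), KO rep1 (0.48, 0.107) or KO rep2 (0.57, 0.0640). It also missed the threshold with upper quartile scaling, with library sizes counted without acinar genes and with DESeq2, though its direction held in each.

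Tgfbi (chromosome 13, 56609523 to 56639562) encodes an adhesive matrix protein named for its induction by TGF-beta. It was at 243 and 201 CPM in WT rep1 and WT rep2 and at 1071 and 699.9 CPM in KO rep1 and KO rep2, where KO rep1 was clearly the higher. The rise was 3.99-fold (log2 change 1.99 ± 0.24 SE, edgeR adjusted p = 0.000323), with 751 of the 13990 tested genes above it.

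**Figure D3:**
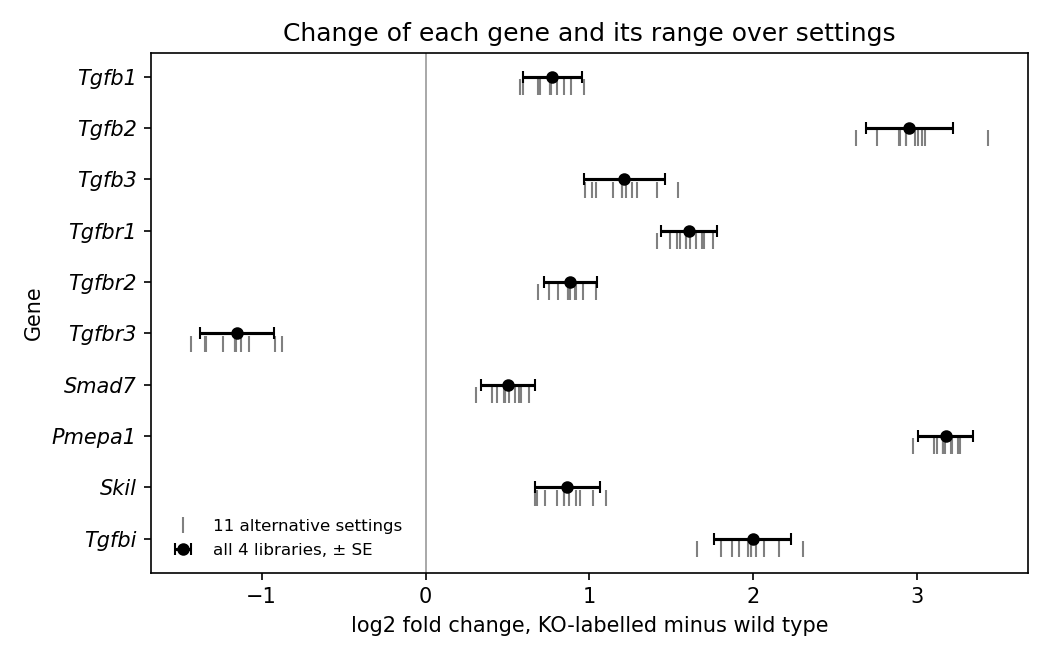
Log2 fold change of each gene, knockout-labelled minus wild type (points, all 4 libraries, with the SE of the fit as bars), and under 11 alternative settings (grey ticks, among them 4 that leave out 1 library). Each tick lies on the same side of 0 as its point, from -1.43 for Tgfbr3 to 3.43 for Tgfb2.

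Per kilobase of annotated exon, the order of the 10 genes differed between the groups. In wild type Tgfbi was highest, at 58.9 ± 7.98 CPM per kilobase, then Tgfbr2 at 29.4 ± 0.445, Tgfb1 at 24.2 ± 2.29, Tgfbr3 at 19.7 ± 3.94 and Smad7 at 18.7 ± 2.15 (SD, n = 2). Below them came Skil, Pmepa1 at 10.6 ± 0.187, Tgfbr1, Tgfb3 and, lowest, Tgfb2 at 3.41 ± 1.33. Neighbours whose means ± SD overlapped were Tgfb1 and Tgfbr3, Tgfbr3 and Smad7, Smad7 and Skil, and Tgfbr1 and Tgfb3.

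In the libraries labelled knockout Tgfbi was again highest, at 235 ± 69.6 CPM per kilobase, followed by Pmepa1 at 95.7 ± 5.30, Tgfbr2 at 54.2 ± 6.81 and Tgfb1 at 41.4 ± 6.96. Tgfbr1 at 27.6 ± 1.54, Tgfb2 at 26.5 ± 2.39, Smad7 at 26.5 ± 0.776, Skil at 25.3 ± 3.95 and Tgfb3 at 19.6 ± 3.31 formed a run in which each neighbour overlapped the next. Tgfbr2 and Tgfb1 also overlapped, and Tgfbr3 was lowest at 8.89 ± 2.26 CPM per kilobase. Pmepa1 thus went from rank 7 to rank 2, Tgfb2 from 10 to 6 and Tgfbr3 from 4 to 10. Part of this order turned when the longest transcript was used as the length: Tgfb1 then stood above Tgfbr2 in wild type (47.5 against 29.7 CPM per kilobase) and in the libraries labelled knockout (81.2 against 54.8). Skil then ranked above Smad7 in wild type and above Tgfbr1, Tgfb2 and Smad7 under the knockout label, where Tgfb2 came to rank 7.

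Other genes of the pathway were read from 6 lists chosen by role, 57 genes in all, of which 36 rose, 2 fell and 19 did not pass. Over all tested genes 22.0% were higher and 20.2% lower, shares against which this count and those of the single lists below are to be read. The lists were chosen with earlier results of these data known, so the difference from these shares is a description and not a test. The median log2 change of the 57 genes was 0.86, against -0.01 for all tested genes. Leaving out 1 library gave 33 to 34 higher and 0 to 1 lower (0 without WT rep1 or KO rep2, 1 without WT rep2 or KO rep1).

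Among 12 genes for the latent complex and its activation, 8 rose, 1 fell and 3 did not pass (median 1.78). Itgb6, the integrin chain that with ITGAV pulls active ligand out of the complex in epithelia, had 24 and 50 counts in WT rep1 and WT rep2 and 252 and 503 in KO rep1 and KO rep2, and rose 7.33-fold (log2 change 2.87 ± 0.34 SE, edgeR adjusted p = 0.000402). Furin, the protease that cleaves the ligand precursors, rose 6.38-fold, from 52.4 ± 4.98 to 335 ± 84.2 CPM (SD, n = 2). Itgb8, another integrin chain known for ligand activation, fell 2.14-fold, from 15.1 ± 0.314 to 6.98 ± 1.34 CPM (edgeR adjusted p = 0.0224). Its fall passed in none of the fits without WT rep1, WT rep2, KO rep1 or KO rep2 (log2 changes -1.28 to -0.92, edgeR adjusted p = 0.0612, 0.0773, 0.128 and 0.0592).

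Of 7 accessory receptors and receptor adaptors, 2 rose, 1 fell and 4 did not pass (median 0.01), close to the shares over all tested genes of 22.0% higher and 20.2% lower. Cd109, a surface co-receptor that dampens TGF-beta signalling, had 1 and 4 counts in WT rep1 and WT rep2 and 113 and 90 in KO rep1 and KO rep2, a log2 change of 4.86 ± 0.54 SE (edgeR adjusted p = 0.000242) that ran from 4.35 to 5.96 when 1 library was left out. Vasn, whose protein binds and traps the ligands, rose 2.58-fold. Acvrl1, a type I receptor of endothelial cells, fell 2.16-fold (log2 change -1.11 ± 0.35 SE, edgeR adjusted p = 0.0409), but not without WT rep1 (-0.74, edgeR adjusted p = 0.148) or without KO rep2 (-0.71, edgeR adjusted p = 0.162). In the same libraries 5 of 6 endothelial markers fell and 0 rose, and their summed level was 1191 to 1241 CPM in wild type and 565 to 622 CPM in the libraries labelled knockout. Eng, an accessory receptor of the same list, did not follow them. Its mean was 228.5 CPM in wild type and 222.5 CPM under the knockout label (log2 change -0.04, edgeR adjusted p = 0.915), and the groups overlapped. The part of endothelial cells in the fall of Acvrl1 was not tested.

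Of the SMAD transducers, Smad3 rose 1.82-fold, from 69.3 ± 2.06 to 126 ± 23.1 CPM (SD, n = 2; edgeR adjusted p = 0.00604). Smad4, the shared partner, rose 1.46-fold (edgeR adjusted p = 0.0318), but did not pass without WT rep1, WT rep2 or KO rep2 (edgeR adjusted p = 0.0757, 0.153 and 0.112). With all libraries it also missed the threshold with upper quartile scaling (edgeR adjusted p = 0.132), library sizes without acinar genes (edgeR adjusted p = 0.0698) and DESeq2 (adjusted p = 0.0729). Smad2 did not pass. Among 12 further inhibitors and corepressors 6 rose and 0 fell (median 0.64). Smurf1, a ubiquitin ligase that SMAD7 brings to the receptor, rose 3.44-fold, from 58.8 ± 15.5 to 203 ± 10.8 CPM. Tgif1, a SMAD corepressor, was 2.79-fold higher and passed with all libraries (edgeR adjusted p = 0.0189), though not without KO rep1 (log2 change 1.77, edgeR adjusted p = 0.0618) or KO rep2 (1.17, edgeR adjusted p = 0.131).

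In the SMAD-independent kinase arm 2 of 4 genes rose: Traf6, an adaptor ligase, 1.80-fold, and Map3k7, the kinase TAK1, 1.41-fold. Map3k7 did not pass when WT rep1, WT rep2, KO rep1 or KO rep2 was left out (edgeR adjusted p = 0.169, 0.120, 0.0744 and 0.132). With all libraries it missed the threshold with RLE size factors (edgeR adjusted p = 0.0525), upper quartile scaling (edgeR adjusted p = 0.192), library sizes without acinar genes (edgeR adjusted p = 0.0944) and DESeq2 (adjusted p = 0.120). Among 19 genes known to be induced by TGF-beta, 16 rose and 0 fell (median 2.75). Lox, a collagen crosslinking enzyme, rose 46.6-fold and Ctgf, a matricellular protein, 38.0-fold. Several of these 19, Ctgf first, are also textbook targets of YAP and TAZ or are made by fibroblasts.

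**Figure D4:**
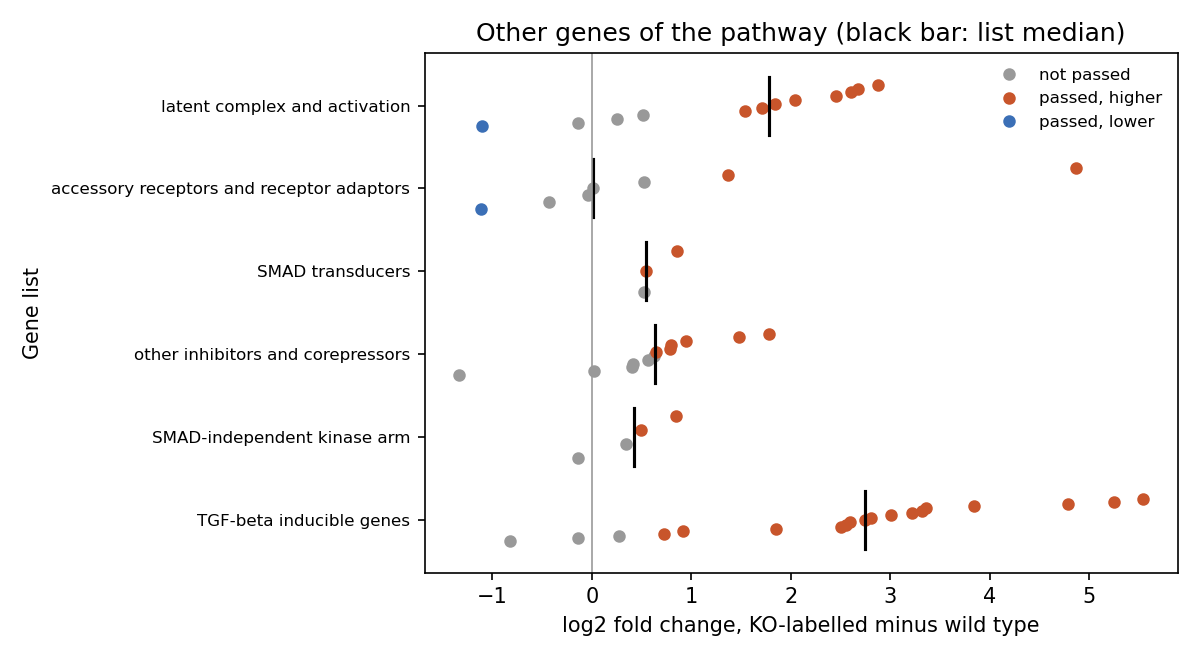
Log2 fold change of each of the 57 other pathway genes, by list, with genes that passed in orange (higher) and blue (lower), the rest in grey, and the list median as a black bar. The TGF-beta inducible genes have the highest median, 2.75, and the accessory receptors the lowest, 0.01.

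Markers of several cell types moved with the groups, and fewer cells of a type cannot be told apart from less RNA per cell in such samples. All 10 duct markers were detected in each library, 8 rose and 0 fell, and their summed level was 1932 to 2443 CPM in wild type and 14388 to 14706 CPM in the libraries labelled knockout. Their median log2 change of 2.21 was exceeded by 2 of the 10 TGF-beta genes, Tgfb2 and Pmepa1. Acinar markers held 5.67% and 9.32% of all counts in the wild-type pair and 0.0166% (KO rep1) and 0.41% (KO rep2) under the knockout label. Of 13 tested acinar markers 2 fell, 0 rose and 11 did not pass, with Amy2a5 at 0 counts in both knockout-labelled libraries and Ptf1a at 0 in KO rep1.

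Macrophages and fibroblasts are known sources of TGF-beta ligands and of Tgfbi. All 10 macrophage markers rose, and their sum was 601 to 632 CPM in wild type and 4375 to 6167 CPM in the libraries labelled knockout, with none at 0. Of 10 fibroblast and stellate markers 7 rose and 1 fell, with sums of 2437 to 2634 and 3084 to 4407 CPM. Vim, which is not particular to these cells, was the largest part of that sum. It held 1086 to 1167 CPM in wild type and 1870 to 2695 CPM in the libraries labelled knockout. Dcn and Dpt overlapped between the groups, and Des fell 3.62-fold. KO rep1 had more of both sums than KO rep2 and also higher levels of Tgfb1, Tgfb3, Tgfbr1, Tgfbr2, Tgfbr3, Smad7, Pmepa1 and Tgfbi, while Tgfb2 and Skil were higher in KO rep2. WT rep1 likewise had more of both sums than WT rep2, with higher Tgfb1, Tgfbr2, Tgfbr3, Pmepa1 and Tgfbi but lower Tgfb2, Tgfb3, Tgfbr1, Smad7 and Skil. These orders were not particular to macrophages and fibroblasts. In KO rep1 the sums of all other marker lists except acinar were also above those of KO rep2. In WT rep1 the smooth muscle, endothelial and mesothelial sums were above those of WT rep2, and the remaining sums below. Mesothelial markers summed to 11.2 to 15.9 CPM in wild type and to 281 to 318 CPM in the libraries labelled knockout, where 2 of 4 rose. Nearly all of the knockout-labelled sum was Msln, at 285 CPM in KO rep1 and 266 CPM in KO rep2. Wt1 was the other gene that rose, while Upk3b and Lrrn4 overlapped between the groups.

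Lower in the libraries labelled knockout were the smooth muscle sum (3293 to 4016 against 792 to 1360 CPM, 6 of 6 fell), the T and NK cell sum (960 to 965 against 20.2 to 37.2 CPM, 8 of 8 fell) and the B cell sum (2144 to 2251 against 63.8 to 168 CPM, 6 of 6 fell). Islet markers summed to 1109 to 2098 CPM in wild type and to 165 to 259 CPM in the libraries labelled knockout, and 3 of 6 fell. Nkg7 was at 0 counts in KO rep2. The part of any of these cell types in the changes of the TGF-beta genes was not tested.

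**Figure D5:**
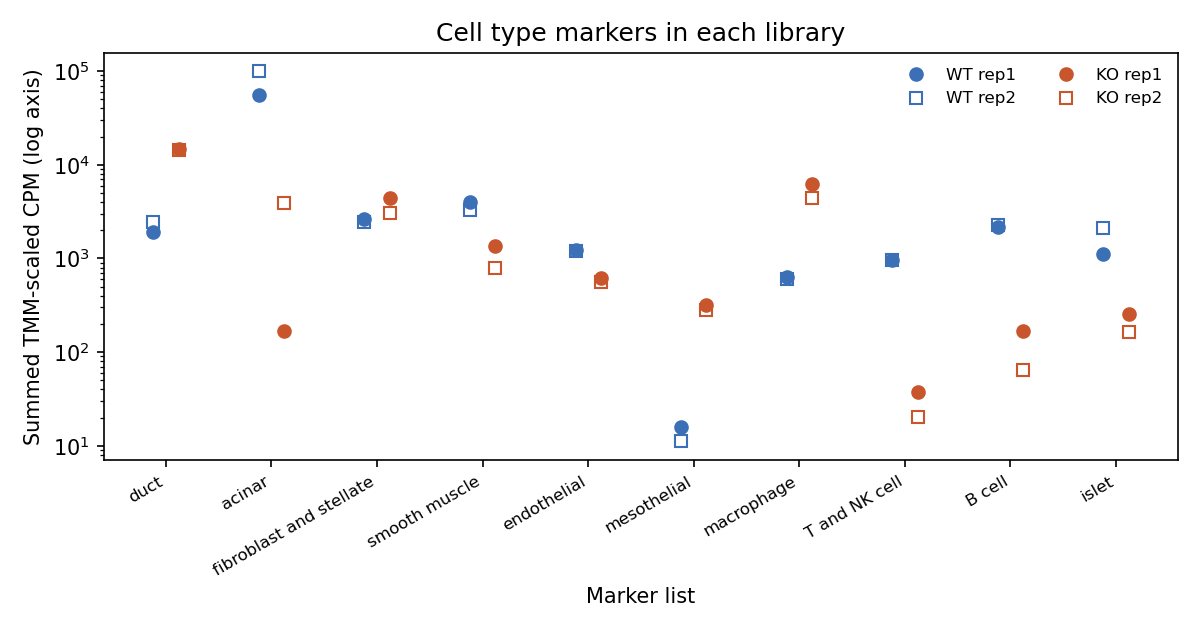
Summed TMM-scaled CPM of each cell type marker list in each library, on a log axis, with wild type in blue and knockout-labelled in orange. Duct, fibroblast and stellate, macrophage and mesothelial sums lie higher in both knockout-labelled libraries. Vim is the largest part of the fibroblast and stellate sum, and Msln is nearly all of the mesothelial sum in the knockout-labelled libraries. Acinar, smooth muscle, endothelial, T and NK cell, B cell and islet sums lie lower.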

How the data were processed

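The deposited files hold raw counts per gene model, 1 file per library, which the authors made with tools that, per the submitters' processing notes, include TopHat and edgeR on build mm10. The counting program, its annotation and its use of strand are not stated by any source used here; per the labels' protocols, a stranded SMARTer kit was used. Gene models of the 10 genes equalled GENCODE M21 in position, and exons of Tgfb2, Tgfb3 and Tgfbr3 overlap small models that held at most 3 counts in a library.

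Counts were filtered with filterByExpr (minimum count 10), scaled by TMM and fitted with edgeR 4.0.16 (glmQLFit, robust, then glmQLFTest) in R 4.3.3 on all 4 libraries with genotype as the only term, with 2 residual degrees of freedom. Benjamini-Hochberg adjustment ran over 13990 genes. SE is the log2 change divided by the root of the F statistic. The procedure was run on simulated counts with 200 changed genes and the spread estimated from these libraries. In the data 42.2% of tested genes passed, so that run cannot check the scaling under so broad a change. The 10 genes and all lists were chosen with earlier results of these data known. Named beyond the 10 are Lats1, Lats2 and, per list, up to 2 rises and 2 falls, the largest among those that passed without overlap. Smad2 and Eng are given as genes that did not pass. Levels per kilobase use the union of GENCODE exons. Depth was 3566387 to 5925601 counts, so a floor of 3 counts was 0.506 to 0.841 CPM. Alternatives were DESeq2 1.42.0, other scalings, no filter, a replicate term and leaving out each library.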

Additional observations from a re-analysis of the deposited data

How the results depend on the processing

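Each of the 10 genes kept its direction in all 11 alternatives. Under the 6 that changed the scaling, the filter or the tool, 8 to 9 genes were higher and 1 lower. With the replicate number as a block, 9 were higher and 1 lower, with 3466 higher and 3190 lower over all genes, and no call of a named gene changed. The numbers carry no pairing in the labels, and same-numbered libraries deviated together with a correlation of only 0.0355 across genes. Smad7 missed the threshold with upper quartile scaling (0.31, edgeR adjusted p = 0.175), library sizes without acinar genes (0.43, edgeR adjusted p = 0.065) and DESeq2 (0.49, adjusted p = 0.0876), and Smad4 and Map3k7 lost their calls under these 3 too. With upper quartile scaling the median over all tested genes was -0.20 in place of -0.01, with 2339 higher and 3594 lower genes, against 3077 and 2832. Leaving out 1 library gave 1867 to 2276 lower genes (1867 without KO rep2), and 0 to 1 lower among the 57 other pathway genes, against 2. Lengths of the longest transcript in place of all exons raised Tgfb1 in wild type from 24.2 to 47.5 CPM per kilobase and put its share of the ligands at 59.2% to 84.2%. With 2 libraries a group, an exact test cannot go below 0.333, and Cd109 rested on 1 and 4 counts in wild type.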
